A study of Mus musculus with 12 samples.

Results

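The 34 genes described here are interferon-stimulated genes, a list of transcripts that interferons are known to raise, read in the hippocampus of *Fmr1* knockout and wild-type mice. The members were taken by name from the list, and all 34 were found among the 55421 genes of the count tables. All 34 also had more than 20 reads over the 12 libraries, a filter that 22592 genes passed. Poly(A) RNA was sequenced from the hippocampus of 3 mice in each of 4 groups. WT-Veh mice were wild type and received Vehicle, WT-Nut3 mice were wild type and received Nutlin-3, KO-Veh mice lacked *Fmr1* and received Vehicle, and KO-Nut3 mice lacked *Fmr1* and received Nutlin-3, an inhibitor of the ubiquitin ligase MDM2 that stabilises p53. All mice were injected intraperitoneally at 2 months of age and the hippocampus was collected at 6 months, so each value is a level long after the injections ended. The mice were on a C57B/L6 background. Whether the sequenced mice also carried the *Nestin-GFP* reporter used elsewhere in the study is not given in the sources used here. Each library is named by its animal number, RH1 to RH16, as the labels give it. Between 17150820 and 20040482 reads per library were assigned to genes.

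Interferons are secreted proteins that cells release on sensing viral or displaced self nucleic acid. Type I interferons bind the receptor IFNAR1 and IFNAR2, whose kinases JAK1 and TYK2 act on STAT proteins. STAT2 and IRF9 are subunits of the complex ISGF3, which binds the interferon-stimulated response element (ISRE) in promoters, while interferon gamma acts at the gamma-activated site (GAS). The products restrict viral RNA and entry, carry antigen-processing peptidases and feed back on the pathway. In brain, microglia, endothelium, choroid plexus and border cells are known to express these genes, and neurons and glia can as well.

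Promoter sequences show what the members share apart from their name. RefSeq promoters (GRCm38.p6, 250 bases before to 50 after the start) were at hand for 27 of the 34 members, and *Rtp4*, *Ifi27*, *Ifi27l2a*, *Usp18*, *Dhx58*, *Iigp1* and *Parp14* had no entry. The ISRE core was searched as GAAANNGAAA and on the other strand as TTTCNNTTTC, with overlapping matches counted. It occurred in 17 of the 27 member promoters (63.0%), against 943 of all 27025 promoters (3.49%). The GAS letters TTCNNNGAA, which read the same on both strands, occurred in 8 of the 27 (29.6%) against 8.47% of all promoters. Among 67 promoters of further interferon-stimulated genes, which are described below, the ISRE core occurred in 25 (37.3%) and the GAS letters in 8 (11.9%). In 2 members an ISRE and a GAS match overlapped, 5 members had both motifs and 7 had neither. The ISRE core was present in 5 of 5 interferon-induced GTPases, 3 of 4 IFIT genes and 3 of 4 membrane protein genes. It was found in 1 of 4 genes that signal to the nucleus (*Stat2*) and in 0 of 2 immunoproteasome genes. The windows below were chosen because they carry the core in members whose values are given later or that typify a family. Each is written on the gene's own strand, and capitals mark the ISRE matches.
Ifit1 (chr19:34640770-34640828, plus strand): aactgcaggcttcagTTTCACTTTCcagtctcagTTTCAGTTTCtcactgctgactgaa
Ifit3 (chr19:34583358-34583431, plus strand): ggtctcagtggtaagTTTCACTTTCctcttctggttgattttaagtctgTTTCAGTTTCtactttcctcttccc
Gbp2 (chr3:142620589-142620628, plus strand): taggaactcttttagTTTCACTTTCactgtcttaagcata
Gbp7 (chr3:142530268-142530307, plus strand): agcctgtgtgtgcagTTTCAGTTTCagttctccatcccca
Bst2 (chr8:71537572-71537617, minus strand): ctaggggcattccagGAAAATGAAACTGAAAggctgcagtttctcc
Ifitm2 (chr7:140955983-140956022, minus strand): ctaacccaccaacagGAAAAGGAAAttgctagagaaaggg
Isg15 (chr4:156200860-156200911, minus strand): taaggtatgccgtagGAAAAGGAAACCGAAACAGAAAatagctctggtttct

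*Ifit1* and *Ifit3* each carried 2 separate cores, *Bst2* 2 overlapping ones and *Isg15* a run of 3. The *Ifit3b* promoter, at chr19:34607754-34607827 on the plus strand, held the same stretch as *Ifit3*, with 74 of 74 bases identical. The promoters of *Irf9*, *Lgals3bp*, *Ifitm1*, *Psmb8* and *Psmb9*, which recur in the comparisons, did not hold these ISRE letters within this window. A match is a description of the letters and was not tied to binding here.

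The genotype labels were checked on *Fmr1* itself. Its level in normalised read count (CPM, each library scaled to a common depth) was 73.9 to 79.5 in the 6 wild-type libraries and 28.5 to 37.3 in the 6 knockout libraries. The ranges did not overlap, and the log2 fold change of all KO against all WT was −1.22 (SE 0.0555, adjusted *P*-value 1.71e-08 by edgeR). Reads on the gene thus remained in the knockout libraries.

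The tissue label was checked on markers of hippocampal neurons, all 12 of which were present. *Snap25*, a synaptic fusion protein, lay between 1574 and 1758 CPM and *Prox1*, which marks dentate granule cells, between 91.9 and 137 CPM. Other markers set some libraries apart. The summed CPM of 14 choroid plexus genes was 33.6 to 58.6 in 8 libraries but 4823 in RH9 of WT-Nut3, and 3604, 391 and 5159 in RH6, RH8 and RH13, which are all 3 libraries of KO-Nut3. The most abundant of them was *Ttr*, the carrier of thyroxine and retinol made by choroid plexus, with 4213 CPM in RH9 and 3090, 313 and 4518 CPM in RH6, RH8 and RH13 against 3.15 to 18.2 CPM elsewhere. *Ttr*, *Kcne2*, *Slc4a5*, *Tmem72* and *Folr1* passed the test in KO-Nut3 against KO-Veh, as did *Igf2*, a growth factor of meninges and plexus stroma. All 3 KO-Nut3 sums lay above all 6 sums of mice given Vehicle, so the choroid plexus signal cannot be told apart from the group where KO-Nut3 is compared with KO-Veh or WT-Veh. Against WT-Nut3 the sums overlapped through RH9.

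Fibroblast and border macrophage genes followed a different order of libraries. The summed CPM of 12 fibroblast genes, led by *Dcn*, was 314 in RH8 and 235 in RH5 of WT-Veh, against 60.8 to 157 in the other libraries. The 8 border macrophage genes, led by *Mrc1*, summed to 21.4 CPM in RH8, 15.7 in RH6 and 13.7 in RH5, against 5.02 to 10.8 in the rest. The 8 ependymal genes, led by *Foxj1*, summed to between 16.4 and 55.2 CPM. RH13, RH6 and RH16 held the highest sums, followed by RH9 and RH8 at 44.5 and 43.9 CPM. The libraries with choroid plexus reads were thus all among the highest here. The 10 astrocyte genes, led by *Slc1a2*, summed to between 4868 and 6099 CPM. Microglia did not stand apart: their 12 genes, led by *Csf1r*, summed to 344 to 428 CPM, and the KO-Nut3 sums were 344, 386 and 382 CPM, the first of them (RH6) the lowest of the 12 libraries. The 14 genes of lymphocytes and other leukocytes summed to only 4.40 to 11.2 CPM and were led by *Ptprc*, and *Cd3d*, *Cd3g* and *Nkg7* had no more than 3 reads in any library. In bulk tissue, fewer cells of a type and less RNA per cell cannot be told apart.

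**Figure D1:**
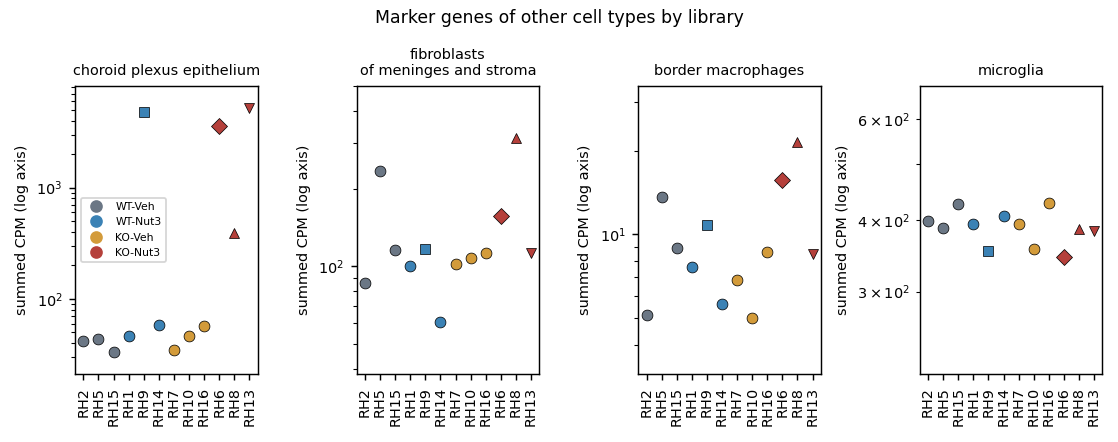
Summed CPM of marker genes (vertical axes, log scale) in each of the 12 libraries (horizontal axes, animal numbers coloured by group). Choroid plexus genes stood at 391 to 5159 CPM in the 3 KO-Nut3 libraries and at 4823 CPM in RH9, against 33.6 to 58.6 CPM in the other 8.

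The members were expressed at a low level in these hippocampi. Their mean over the 12 libraries ran from 0.275 to 36.6 CPM with a median of 3.81 CPM, and 9 of 34 exceeded the median of all genes tested, 6.57 CPM. Compared per length, as reads normalised for depth and exon length (RPKM, mean ± SD, n = 12), the order was led by membrane and secreted proteins and by *Stat2*. *Ifi27*, a small protein of mitochondrial and nuclear membranes, stood first at 24.9 ± 4.48 RPKM. *Ifitm3*, which blocks viral fusion in endosomes, followed at 10.8 ± 3.24 RPKM. Next were *Lgals3bp*, a secreted galectin-binding glycoprotein, at 5.70 ± 2.04 RPKM and *Stat2*, the ISGF3 subunit, at 5.33 ± 0.298 RPKM. *Bst2*, the tetherin that holds budding virions at the cell surface, stood at 4.52 ± 1.52 RPKM. The ranges of mean ± SD of *Lgals3bp*, *Stat2* and *Bst2* overlapped. Of the most used markers of an acute interferon response, *Ifit3* had rank 6 of the 34 at 3.89 ± 1.21 RPKM. Its range of mean ± SD overlapped those of *Lgals3bp*, *Stat2* and *Bst2*, and reads shared with its copy *Ifit3b* were not counted. *Isg15*, a ubiquitin-like modifier, had rank 8 at 2.21 ± 0.630 RPKM, above the members' median of 1.28 RPKM. *Rsad2*, which makes a chain-terminating nucleotide, had rank 30 at 0.405 ± 0.147 RPKM. The lowest was *Cxcl10*, the chemokine that draws T cells, at 0.122 ± 0.0810 RPKM and only 61 reads in all libraries together.

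The members differed widely in how much they varied between mice. The coefficient of variation over 12 libraries was 5.60% for *Stat2* and 10.3% for *Irf1*, a transcription factor of the gamma arm. It was 54.0% for *Ifitm1*, an antiviral membrane protein of the cell surface, and 66.3% for *Cxcl10*, where counts of 1 to 10 reads leave little precision. The median was 27.6%, and the highest library exceeded the lowest 2.63-fold in the median member.

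**Figure D2:**
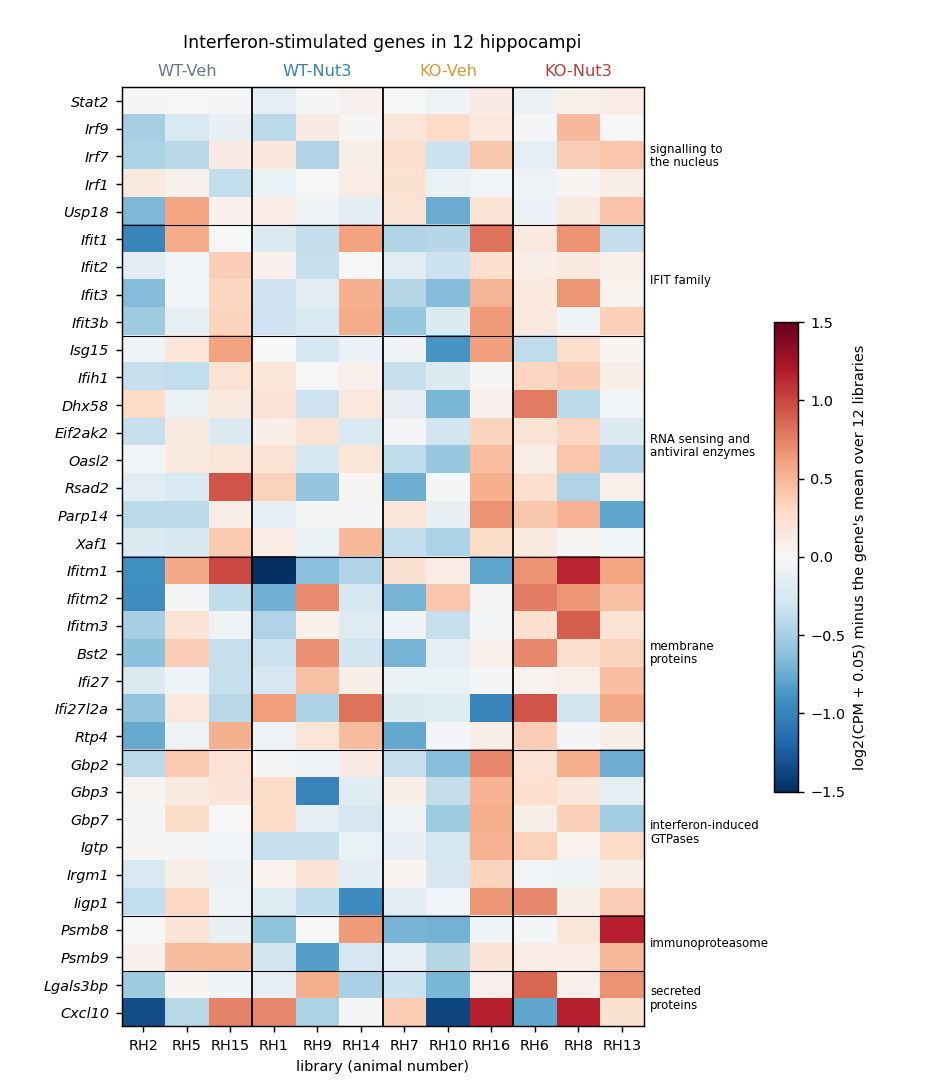
Each of the 34 members (vertical axis, grouped by role) in each library (horizontal axis, animal numbers by group), coloured by log2 level minus the gene's mean over the 12 libraries, with the colour scale ending at ±1.5. RH8, RH6 and RH13 of KO-Nut3 and RH16 of KO-Veh are red for most members, and RH2 of WT-Veh and RH10 of KO-Veh are blue.

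Much of this variation lay between mice of the same group. Counting the members above their own 12-library median, RH2, RH5 and RH15 of WT-Veh had 4, 20 and 19 of 34. In WT-Nut3, RH1, RH9 and RH14 had 15, 11 and 16. The summed level of the members in RH9, 214 CPM, was nevertheless the highest of the wild-type libraries. KO-Veh was the most divided group, with 9 in RH7, 4 in RH10 and 29 in RH16. KO-Nut3 had 24, 29 and 24 in RH6, RH8 and RH13. A single vehicle-treated knockout mouse, RH16, thus stood as high as any treated one.

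The comparison of KO-Nut3 with KO-Veh asks what the injections left in the knockout hippocampus. No member passed an adjusted *P*-value of 0.05 by edgeR, a threshold that 45 of all genes (0.199%) passed in this comparison. Without adjustment, 8 of 34 members had *P* below 0.05 with a higher level after Nutlin-3, where 5.75% of all genes did. Values of the groups did not overlap, with KO-Nut3 higher, for 8 members, against 7.85% of all genes. The log2 fold change was above 0 for 26 members and its median was 0.16, against 0.0034 over all genes tested. Without RH16 the median was 0.53, without RH7 it was 0.09 and without RH10 it was 0.0033, so the size of the shared difference depended on which vehicle mice were in it.

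By role, whose differences from each other were not tested, the counts were as follows. The 7 membrane protein genes all had a log2 fold change above 0, with a median of 0.68, and 5 of them were among the 8. The 2 immunoproteasome genes and the 2 secreted proteins were also above 0. The 4 IFIT genes were above 0 with a median of 0.14 and none had *P* below 0.05. Of the 8 genes of RNA sensing and antiviral enzymes 5 were above 0, with a median of 0.13, and 1, *Ifih1*, had *P* below 0.05. The 6 GTPases were split, 3 above 0, with a median of 0.02, and the 5 genes of signalling to the nucleus had a median of 0.01.

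*Lgals3bp* (chr11:118392751-118402092, minus strand, mm10) stood at 12.3, 9.52 and 16.2 CPM in RH7, RH10 and RH16 of KO-Veh and at 27.9, 16.2 and 24.6 CPM in RH6, RH8 and RH13 of KO-Nut3. The lowest treated mouse only just exceeded the highest vehicle mouse. The log2 fold change was 0.85 (SE 0.222, adjusted *P*-value 0.255 by edgeR). With DESeq2 it was 0.85 with an adjusted *P*-value of 0.00822, and in edgeR without RH8 it was 1.05 with 0.0327. In edgeR with all genes of at least 1 count the adjusted *P*-value was 0.000338. The call thus depends on the tool, on the gene filter and on RH8. Over all alternatives the log2 fold change ranged from 0.68 to 1.06 and the adjusted *P*-value from 0.000338 to 0.955. In the wild-type groups it stood at 10.6, 15.7 and 14.7 CPM with Vehicle and at 13.8, 22.3 and 10.9 CPM with Nutlin-3, where the highest value was that of RH9.

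*Ifitm1*, *Ifitm2* and *Ifitm3* lie within one cluster on chromosome 7. *Ifitm3* (chr7:141009586-141010770, minus strand) stood at 6.81, 5.58 and 7.005 CPM in KO-Veh and at 8.37, 13.3 and 8.18 CPM in RH6, RH8 and RH13. All 3 treated mice were above the vehicle mice, and RH8 stood well above the other two. Its log2 fold change was 0.62 (SE 0.208, adjusted *P*-value 0.455) and was 0.35 without RH8. *Ifitm1* (chr7:140967221-140969825, plus strand) stood at 1.65, 1.52 and 0.797 CPM against 2.27, 3.15 and 2.14 CPM, again without overlap, with a log2 fold change of 0.92 (SE 0.316, adjusted *P*-value 0.476). *Ifitm2*, the endosomal relative of *Ifitm3*, stood at 0.568, 1.30 and 0.968 CPM against 1.66, 1.55 and 1.32 CPM. Its groups did not overlap, though its unadjusted *P* was above 0.05.

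*Bst2* (chr8:71534255-71537456, minus strand) stood at 2.37, 3.49 and 4.10 CPM in KO-Veh and at 6.43, 4.64 and 4.89 CPM in KO-Nut3. The groups did not overlap, and the log2 fold change was 0.68 (SE 0.238, adjusted *P*-value 0.491). Among the WT-Nut3 mice RH9, the one with choroid plexus reads, had the highest *Bst2*, 6.26 CPM against 3.09 and 3.14 CPM, and the highest *Ifitm2*, 1.59 CPM against 0.558 and 0.785 CPM. *Ifi27* (chr12:103434211-103440239, plus strand) stood at 33.6, 33.6 and 35.4 CPM against 37.5, 37.9 and 49.4 CPM. RH13 was the highest, and the log2 fold change was 0.28 (SE 0.108, adjusted *P*-value 0.577) and 0.14 without that library. Its neighbour *Ifi27l2a*, of the same family, stood at 0.722, 0.733 and 0.399 CPM against 1.66, 0.687 and 1.26 CPM, so the groups overlapped through RH8. Its log2 fold change was 0.95 (SE 0.423, adjusted *P*-value 0.655).

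*Psmb8* (chr17:34197721-34201454, plus strand), a catalytic subunit of the immunoproteasome, stood at 0.568, 0.564 and 0.911 CPM in KO-Veh and at 0.942, 1.09 and 2.20 CPM in KO-Nut3. RH13 was highest, and the log2 fold change of 1.04 (SE 0.419, adjusted *P*-value 0.598) became 0.58 without it. *Ifih1*, the cytosolic sensor MDA5 of long double-stranded RNA, stood at 3.41, 3.72 and 4.39 CPM against 5.43, 5.61 and 4.67 CPM. These groups did not overlap either, with a log2 fold change of 0.45 (SE 0.182, adjusted *P*-value 0.605).

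**Figure D3:**
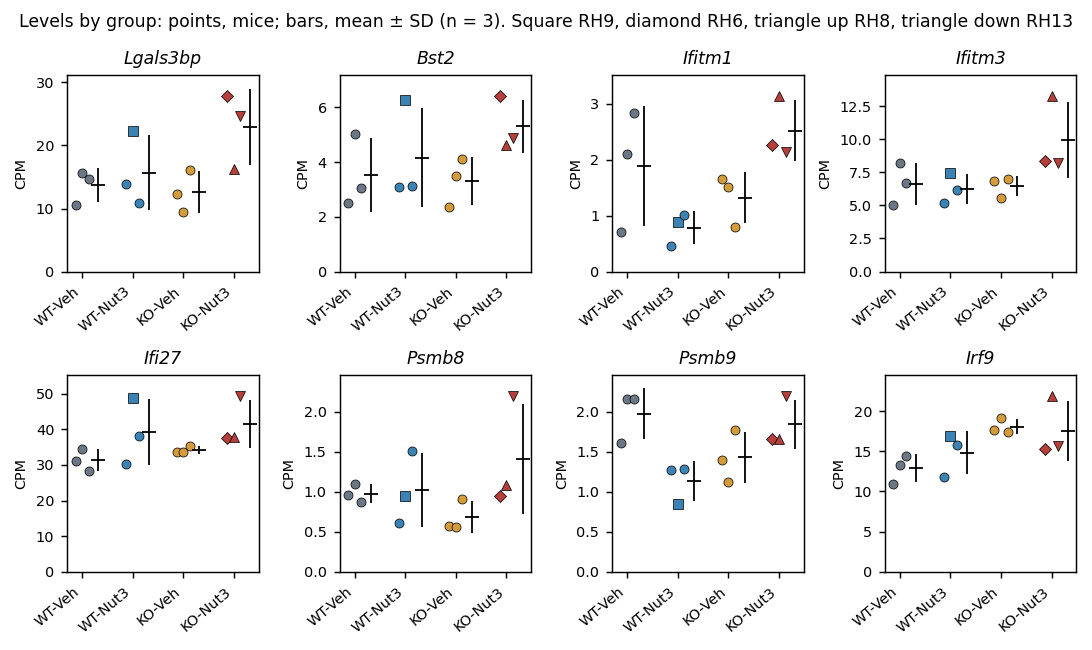
CPM of members named in the comparisons (vertical axes from 0) by group, with a point for each mouse and bars for mean ± SD (n = 3 per group). Squares, diamonds and triangles mark RH9, RH6, RH8 and RH13, the libraries with choroid plexus reads, and the means of *Lgals3bp*, *Bst2* and *Ifitm3* are highest in KO-Nut3.

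The IFIT and GTPase genes overlapped between the groups. *Ifit1*, which binds viral RNA that lacks cap methylation, stood at 1.496, 1.52 and 3.64 CPM in RH7, RH10 and RH16 and at 2.27, 3.32 and 1.59 CPM in RH6, RH8 and RH13. *Ifit3*, its partner, stood at 4.80, 4.11 and 9.28 CPM against 7.21, 10.3 and 6.70 CPM. *Gbp2*, a GTPase that coats pathogen vacuoles, stood at 1.81, 1.47 and 3.82 CPM against 2.66, 3.38 and 1.37 CPM. In each, RH16 exceeded at least 2 of the 3 treated mice and the groups overlapped. *Ifit3* and *Ifit3b* are near-identical copies, and reads that fit both were not counted, so the 2 values are uncertain.

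Low and high animal numbers also differed in read statistics, though the labels name no batch. Multimapped reads were 3.07% to 3.22% of each library up to RH8 and 3.33% to 3.55% from RH9 on. Within each of these sets, of 1 or 2 mice a group, the ratio of KO-Nut3 to KO-Veh was above 1 in both sets for 17 members and pointed in opposite directions for the other 17. That count was not made over all genes, so 17 cannot be read as many or few. RH7 was the only KO-Veh mouse up to RH8, and RH13 the only KO-Nut3 mouse from RH9 on. *Lgals3bp* had log2 ratios of 0.84 up to RH8 and 0.94 from RH9 on, and *Ifitm1* had 0.72 and 0.88. *Bst2* had 1.22 and 0.36 and *Ifitm3* 0.67 and 0.38, the same direction in each set. *Ifit1* had 0.90 and −0.70, *Gbp2* 0.74 and −0.94 and *Oasl2* 0.67 and −0.49, so these turned. The median over the members was 0.45 up to RH8 and 0.08 from RH9 on.

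The choroid plexus sums were 34.7, 46.3 and 56.7 CPM in the vehicle-treated knockouts and 3604, 391 and 5159 CPM in the treated ones. The border macrophage sums were 6.86, 5.02 and 8.66 CPM against 15.7, 21.4 and 8.51 CPM. All 8 of these genes had a log2 fold change above 0, with a median of 0.98. Of them 4 were higher at an unadjusted *P* below 0.05, where 5.75% of all genes were. The fibroblast sums were 102, 108 and 112 CPM against 157, 314 and 112 CPM. Their most abundant gene, *Dcn*, stood at 43.0, 56.8 and 56.6 CPM against 20.3, 56.5 and 44.4 CPM, while 11 of the 12 fibroblast genes were higher at that threshold, with a median of 1.37. Vessel genes also had higher sums: the 12 endothelial genes, led by *Flt1*, summed to 276, 255 and 282 CPM against 298, 323 and 311 CPM, and 7 of the 12 were higher by that test. Of the 10 mural genes, led by *Rgs5*, 9 had a log2 fold change above 0 and 3 were higher by that test. All 8 ependymal genes and all 10 oligodendrocyte genes, led by *Mbp*, were above 0, and 2 ependymal and 4 oligodendrocyte genes were higher by that test. None of the 12 hippocampal neuron genes and 1 of the 12 microglial genes was above 0. The leukocyte sums were 5.83, 4.40 and 5.01 CPM against 11.1, 7.96 and 6.59 CPM, without overlap. Of the 7 leukocyte genes that could be tested, 6 were above 0 and 3 were higher at that threshold. All 6 blood genes were above 0, and 1 of them was higher. The part of these cells in the member differences was not tested. RH8 had the least plexus signal of the treated mice, 391 CPM, and the highest fibroblast and border macrophage sums of all 12 libraries.

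**Figure D4:**
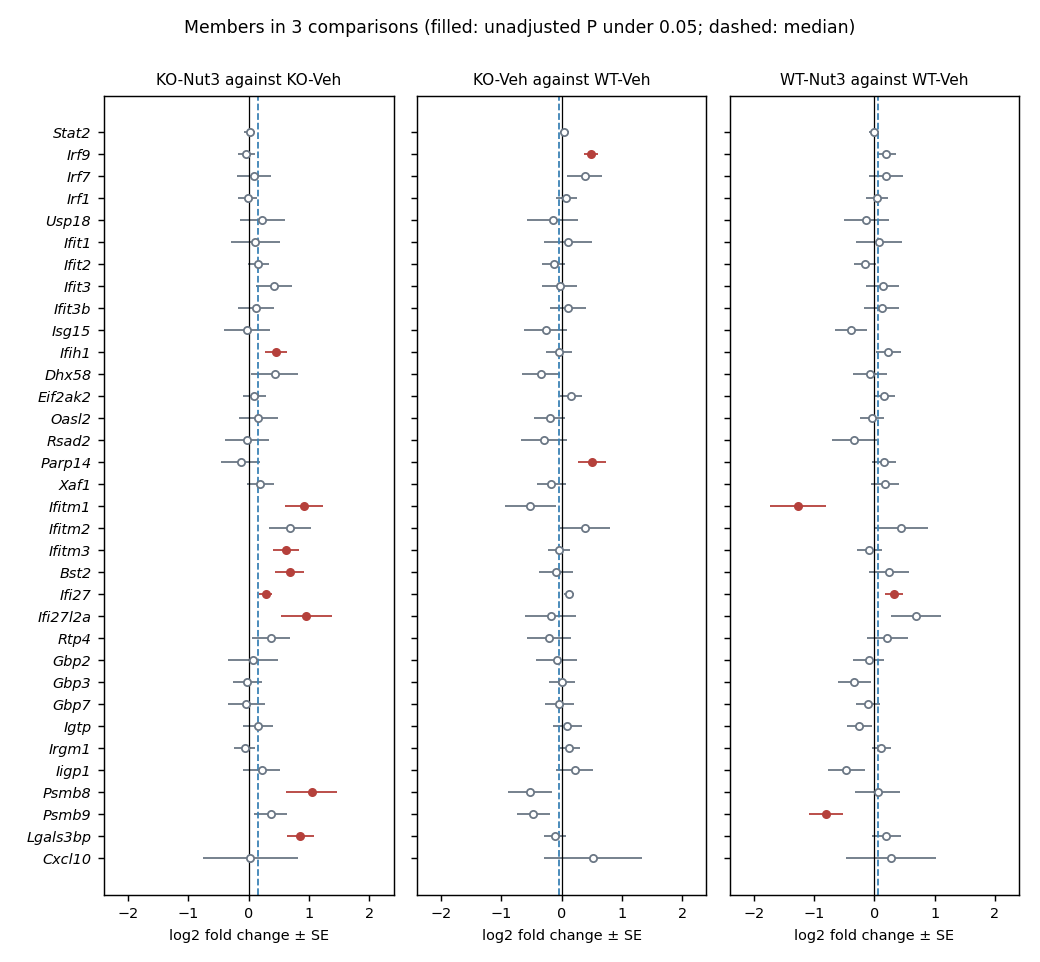
Log2 fold change of the 34 members (points with SE, vertical axis by role) for KO-Nut3 relative to KO-Veh, for KO-Veh relative to WT-Veh and for WT-Nut3 relative to WT-Veh. Filled points had an unadjusted *P* below 0.05, and the dashed lines mark the medians of 0.16, −0.04 and 0.07.

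The comparison of KO-Veh with WT-Veh asks what loss of *Fmr1* changed without treatment. No member passed the adjusted threshold, which 0.0177% of all genes passed. The log2 fold change was above 0 for 15 of 34 members with a median of −0.04. The median was −0.26 without RH16 and −0.20 without RH2, and it turned above 0 without RH5, RH15, RH7 or RH10, at 0.08, 0.06, 0.04 and 0.10 in that order. Only 2 members had an unadjusted *P* below 0.05, both higher in the knockout, where 3.08% of all genes were.

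*Irf9* (chr14:55603571-55610030, plus strand), the DNA-binding subunit of ISGF3, was the first of them. It stood at 10.98, 13.3 and 14.4 CPM in RH2, RH5 and RH15 of WT-Veh and at 17.6, 19.1 and 17.4 CPM in RH7, RH10 and RH16 of KO-Veh. The groups did not overlap, which held, with the knockout higher, for 1 member and for 5.9% of all genes. The log2 fold change was 0.48 (SE 0.118, adjusted *P*-value 0.549). RH16, high for most members, did not stand out here. *Stat2*, the partner of *Irf9* in ISGF3, stood at 30.8, 31.5 and 31.0 CPM in WT-Veh and at 31.6, 30.2 and 34.2 CPM in KO-Veh. These groups overlapped. *Irf9* overlaps *Rnf31* on the same strand, so reads that the annotation gives to both were not counted. The choroid plexus sums of 33.6 to 43.6 CPM in WT-Veh and 34.7 to 56.7 CPM in KO-Veh overlapped. Of the 14 choroid plexus genes 11 had a log2 fold change above 0. At an unadjusted *P* below 0.05, 2 of them were higher, where 3.08% of all genes were. Markers of other cells differed in level between the same groups: all 8 ependymal genes had a log2 fold change above 0 and 5 of them were higher at an unadjusted *P* below 0.05. At the same threshold 5 of 12 endothelial, 4 of 10 mural and 4 of 12 fibroblast genes were lower, against 4.12% of all genes, as were 2 of the 7 leukocyte genes tested, and none of the 8 border macrophage genes was above 0. Of the 10 astrocyte genes 2 were higher, without overlap, and of the 12 microglial genes 1 was lower. Of the 12 neuron genes 1 was lower, *Wfs1*, a protein of the endoplasmic reticulum that marks CA1 pyramidal cells, with a log2 fold change of −0.44 (adjusted *P*-value 0.0478 by edgeR). Their part in the difference was not tested. The second member was *Parp14*, an ADP-ribosyltransferase, at 3.22, 3.20 and 4.58 CPM against 4.85, 3.95 and 6.83 CPM. Its groups overlapped, and the log2 fold change was 0.50 (SE 0.230, adjusted *P*-value 0.686) and 0.26 without RH16.

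Nutlin-3 against Vehicle in wild-type mice gave no member past the adjusted threshold, as for all genes (0%). The median log2 fold change was 0.07 with 19 of 34 above 0. Its direction turned, to −0.06 without RH2, to −0.07 without RH14 and to −0.02 with a term for low or high animal number, and it was 0.04 without RH9. By the unadjusted test 1 member was higher, where 1.84% of all genes were, and 2 were lower, where 1.34% were.

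*Psmb9* (chr17:34181987-34187764, minus strand), another catalytic subunit of the immunoproteasome, stood at 1.61, 2.15 and 2.16 CPM with Vehicle and at 1.27, 0.844 and 1.29 CPM with Nutlin-3. The groups did not overlap, as for *Igtp*, a GTPase of the IRG family, at 2.69, 2.63 and 2.57 CPM against 2.08, 2.09 and 2.47 CPM. These were the 2 members with lower, non-overlapping values, against 3.92% of all genes. *Psmb9* had a log2 fold change of −0.80 (SE 0.279, adjusted *P*-value 0.998) and of −0.63 without RH9, and it overlaps *Tap1* on the opposite strand in libraries that do not keep strand. *Igtp* overlaps *Irgm2* on the same strand.

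*Ifitm1* stood at 0.716, 2.10 and 2.83 CPM in RH2, RH5 and RH15 and at 0.456, 0.894 and 1.01 CPM in RH1, RH9 and RH14. RH2 lay among the treated mice, so the groups overlapped, and the log2 fold change was −1.27 (SE 0.471, adjusted *P*-value 0.998) and −1.38 without RH9. *Ifi27* stood at 31.2, 34.6 and 28.4 CPM against 30.4, 48.8 and 38.2 CPM. The highest value was that of RH9, and the log2 fold change of 0.32 (SE 0.146, adjusted *P*-value 0.998) was 0.13 without it.

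Markers of other cells also differed between these wild-type groups. Of the 12 fibroblast genes 11 had a log2 fold change below 0, with a median of −0.74, and 3 were lower at an unadjusted *P* below 0.05, where 1.34% of all genes were. Of the 7 leukocyte genes tested 1 was above 0, with a median of −0.63, and 1 was lower at that threshold. Of the 8 border macrophage genes 1 was above 0. All 14 choroid plexus genes, 4 of 8 ependymal genes and 5 of 10 oligodendrocyte genes were higher at that threshold, where 1.84% of all genes were. The choroid plexus sum stood out in RH9 alone of the 3 treated mice. The part of these cells in the member differences was not tested.

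The treated knockouts were also set against both wild-type groups, and these comparisons share the KO-Nut3 libraries with the first one. Against WT-Veh, no member was called where 0.00443% of all genes were. Here 5 members had an unadjusted *P* below 0.05 with KO-Nut3 higher (5.61% of all genes), 5 had higher values without overlap (7.92% of all genes), and the median was 0.24, which came to 0.15 without RH2 and to 0.16 without RH8. *Lgals3bp* had a log2 fold change of 0.74 (SE 0.208, adjusted *P*-value 0.303 by edgeR, 0.0356 by DESeq2 and 0.0447 in edgeR without RH8). *Ifitm2* had 1.06 (SE 0.338, adjusted *P*-value 0.379), from 0.478, 0.945 and 0.721 CPM in WT-Veh. The others were *Ifi27* with a log2 fold change of 0.41 (SE 0.121, adjusted *P*-value 0.343), *Irf9* with 0.45 (SE 0.166, adjusted *P*-value 0.464) and *Ifitm3* with 0.58 (SE 0.238, adjusted *P*-value 0.510). Without RH8 *Irf9* had 0.26 and *Ifitm3* 0.32, and without RH13 *Ifi27* had 0.26. *Irf9* stood at 15.2, 21.9 and 15.6 CPM in KO-Nut3, above each WT-Veh value and on both sides of the KO-Veh values. In this comparison all 14 choroid plexus, 7 of 8 ependymal, 6 of 10 oligodendrocyte, 2 of 12 fibroblast and 2 of 10 astrocyte genes were higher by the unadjusted test, as was 1 border macrophage and 1 endothelial gene. Lower were 2 of 12 microglial genes and 1 astrocyte, 1 endothelial and 1 neuron gene, where 803 of all 22592 genes were. Their part was not tested.

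Against WT-Nut3, again no member was called where 0.00443% of all genes were. The log2 fold change was above 0 for 31 of 34 members with a median of 0.18, which was 0.09 without RH9. By the unadjusted test 5 were higher (2.8% of all genes), and 6 were higher without overlap (5.3% of all genes). *Ifitm1* came first, at 0.456, 0.894 and 1.01 CPM in WT-Nut3 against 2.27, 3.15 and 2.14 CPM in KO-Nut3. Its log2 fold change was 1.67 (SE 0.338, adjusted *P*-value 0.928 by edgeR), and it was 1.78 without RH9. *Iigp1*, a GTPase that attacks parasite vacuoles, stood at 1.37, 1.19 and 0.785 CPM against 2.61, 1.66 and 2.03 CPM with a log2 fold change of 0.90 (SE 0.304). *Ifitm3* had 0.66 (SE 0.225), *Psmb9* 0.69 (SE 0.284) and *Igtp* 0.49 (SE 0.206), each with an adjusted *P*-value of 0.928 and groups that did not overlap. Without RH8 *Ifitm3* had 0.40. Fibroblast genes also stood higher, 11 of 12 of them by the unadjusted test, with a median log2 fold change of 1.43. All 8 border macrophage genes were above 0, with a median of 0.997, and 2 were higher by that test. All 14 choroid plexus genes were above 0 as well, none with an unadjusted *P* below 0.05, and none of the 12 neuron genes was above 0. By the unadjusted test 2 of 10 astrocyte, 2 of 12 endothelial, 1 of 10 mural and 1 of 6 blood genes were higher. Of the 12 neuron genes 1 was lower, where 469 of all 22592 genes were. All 8 ependymal genes were above 0, and 1 was higher by that test. Of the 7 leukocyte genes tested 6 were above 0, with a median of 1.31, and 1 was higher. The part of these cells was not tested.

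The interaction asks whether the effect of Nutlin-3 differed between genotypes, and no gene passed it (0%). For 3 members the log2 fold change was more positive in the knockout than in wild type at an unadjusted *P* below 0.05, against 2.9% of all genes. The median interaction of the members was 0.23, between 0.06 without RH7 and 0.51 without RH16. *Ifitm1* had the largest of the 3, 2.19 on the log2 scale (SE 0.614, adjusted *P*-value 0.994 by edgeR). It combined lower values after Nutlin-3 in wild type with higher ones in the knockout. *Psmb9* had 1.17 (SE 0.377, adjusted *P*-value 0.994) and *Ifitm3* had 0.71 (SE 0.314, adjusted *P*-value 0.994). Without RH9 they were 2.30, 0.99 and 0.85, in the order *Ifitm1*, *Psmb9* and *Ifitm3*, and without RH8 *Ifitm3* had 0.44. Fibroblast genes showed the same pair of directions as *Ifitm1*. In the interaction 11 of 12 were higher by the unadjusted test, with a median of 2.28, and their median log2 fold change was −0.74 for Nutlin-3 in wild type and 1.37 in the knockout. At that threshold 3 of 8 border macrophage, 5 of 12 endothelial, 3 of 10 mural and 3 of 7 leukocyte genes were also higher, and none of the 14 choroid plexus genes was. The part of these cells in the interaction was not tested.

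With 6 mice on each side, all KO against all WT gave no member past the adjusted threshold (0.00443% of all genes). By the unadjusted test 2 members were higher, against 3.8% of all genes, and none had all KO above all WT, which held for 0.177% of all genes. *Irf9* had a log2 fold change of 0.36 (SE 0.114, adjusted *P*-value 0.436 by edgeR). The WT-Nut3 mice, at 11.8, 16.9 and 15.8 CPM, reached into the knockout range. *Iigp1* had 0.56 (SE 0.230, adjusted *P*-value 0.548). By the unadjusted test 5 of 8 ependymal and 3 of 10 astrocyte genes were higher, with a smallest adjusted *P*-value of 0.0737 among the astrocyte genes by edgeR. Lower were 2 of 12 neuron, 1 of 12 microglial, 1 of 12 endothelial and 1 of 7 leukocyte genes, where 985 of all 22592 genes were. Their part was not tested.

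All Nut3 against all Veh gave none past the adjusted threshold for members or for all genes (0%), and 4 members higher by the unadjusted test, against 5.02% of all genes. These were *Ifi27* with a log2 fold change of 0.30 (SE 0.100, adjusted *P*-value 0.436), *Ifi27l2a* with 0.82 (SE 0.297, adjusted *P*-value 0.509), *Lgals3bp* with 0.53 (SE 0.201, adjusted *P*-value 0.558) and *Ifih1* with 0.34 (SE 0.131, adjusted *P*-value 0.586). Without RH9 they were 0.21, 0.98, 0.43 and 0.37 in the same order. *Ifi27l2a* stood at 0.537, 0.945 and 0.618 CPM in WT-Veh and at 1.32, 0.596 and 1.51 CPM in WT-Nut3. In both genotypes 2 of the 3 treated mice lay above all mice given Vehicle, and the third of each, RH9 and RH8, lay among them. All 14 choroid plexus, 4 of 8 ependymal and 7 of 10 oligodendrocyte genes were higher by the unadjusted test in this comparison, as were 2 of 12 endothelial genes. So were 1 of 12 fibroblast, 1 of 8 border macrophage, 1 of 10 mural and 1 of 6 blood genes. All 10 mural genes had a log2 fold change above 0. Lower were 2 of 10 astrocyte genes and 1 of 12 microglial genes, where 514 of all 22592 genes were. Their part was not tested.

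The genes around the members were read from lists of the pathway. Transcripts of the listed interferon genes were hardly present. Of 9 ligand genes 7 had no read in any library, and *Ifna2* and *Ifne* had 3 reads together. None of the 9 could be tested, and levels under 3 reads per library, 0.149 to 0.179 CPM, could not be seen at this depth. Multimapped reads were not counted for these genes either. Interferon protein, which is secreted, was not measured, so its presence in the tissue was not tested. The receptors and kinases were present, with *Ifnar1* at 8.10, *Ifnar2* at 3.37, *Ifngr1* at 4.59, *Ifngr2* at 14.2 and *Jak1* at 28.7 RPKM.

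None of the 19 receptor and JAK-STAT genes tested passed the adjusted threshold in any of the 8 comparisons. In KO-Nut3 against KO-Veh 1 of the 19 was higher by the unadjusted test, a share near the 5.75% of all genes. It was *Il10rb*, the chain shared by the receptors of interferon lambda and interleukin 10, at 3.41, 2.99 and 2.85 CPM against 5.65, 4.58 and 5.60 CPM, with a log2 fold change of 0.77 (SE 0.182, adjusted *P*-value 0.191). Its wild-type values, 3.53 to 5.56 CPM, all lay above those of KO-Veh. In KO-Veh against WT-Veh 1 was higher and 1 lower, *Stat3* and *Il10rb*, where 3.08% and 4.12% of all genes were, and in WT-Nut3 against WT-Veh there was none. *Stat3*, the transcription factor of interleukin 6 signalling, stood at 49.2 to 54.1 CPM in the wild-type mice and at 55.6 to 60.3 CPM in the knockouts. Its 6 knockout values were all above the 6 wild-type values, with a small log2 fold change of 0.16 (SE 0.0348, adjusted *P*-value 0.323 by edgeR). *Ifnlr1*, the specific chain of the interferon lambda receptor, had the log2 fold change of 1.92 in all KO against all WT (SE 0.520, adjusted *P*-value 0.417) on 67 reads in all, and its highest group mean, in KO-Nut3, was 0.665 CPM.

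Of the sensors and adaptors 19 of 20 could be tested and none was called in the 8 comparisons. The RNA sensor RIG-I, listed in the annotation as *Ddx58*, stood at 4.90, 4.17 and 5.41 CPM in KO-Veh and at 7.32, 7.73 and 6.48 CPM in KO-Nut3. The treated knockouts were above all 9 other mice, the highest of which had 5.93 CPM, and the log2 fold change was 0.57 (SE 0.166, adjusted *P*-value 0.345). It was the 1 sensor of 19 with a higher level at an unadjusted *P* below 0.05 in that comparison (5.75% of all genes), beside *Ifih1* among the members. Of the 19 sensors and adaptors 7 had a log2 fold change above 0 there, and the median was −0.02. In KO-Veh against WT-Veh *Ticam1*, the adaptor of TLR3, had a log2 fold change of −0.60 (adjusted *P*-value 0.608) and *Traf3*, a ubiquitin ligase downstream of it, 0.16 (adjusted *P*-value 0.653).

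A further 79 interferon-stimulated genes, of 85 listed, were tested beside the members and none was called in the 8 comparisons. In KO-Nut3 against KO-Veh 9 were higher by the unadjusted test, where 5.75% of all genes were. The log2 fold change was above 0 for 59 of them (74.7%) and for 50.8% of all genes, with medians of 0.16 and 0.0034. In KO-Veh against WT-Veh 1 was higher (3.08% of all genes) and 3 were lower (4.12% of all genes), with a median of −0.09. In WT-Nut3 against WT-Veh 1 was lower (1.34% of all genes), with a median of −0.02. *Trim21*, a cytosolic antibody receptor, stood at 1.75, 1.69 and 1.65 CPM in KO-Veh and at 3.55, 2.92 and 2.74 CPM in KO-Nut3 (log2 fold change 0.85, adjusted *P*-value 0.255). *Ube2l6*, the conjugating enzyme for ISG15, had a log2 fold change of 0.63 (SE 0.189, adjusted *P*-value 0.378). *H2-K1*, a class I heavy chain, stood at 25.9, 21.9 and 31.4 CPM against 42.2, 41.1 and 29.6 CPM, so RH13 lay within the vehicle range, and its log2 fold change was 0.51 (SE 0.160, adjusted *P*-value 0.402). *B2m*, the class I light chain, was among the most abundant of the further genes per length at 65.0 RPKM, and KO-Nut3 against WT-Veh gave a log2 fold change of 0.27 (SE 0.0727, adjusted *P*-value 0.291). *Slfn5*, a Schlafen family member, was the further gene with the smallest unadjusted *P* in all KO against all WT, with 4.84 to 6.11 CPM in wild type and 6.09 to 9.85 CPM in the knockouts. Its log2 fold change of all KO against all WT was 0.57 (SE 0.136, adjusted *P*-value 0.417 by edgeR).

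Correlations between members were read across mice. Of the 561 pairs of members, 464 (82.7%) had a Pearson correlation above 0 over the 12 libraries, with a median r of 0.28. Among all pairs of genes tested 49.9% were above 0. A correlation of at least 0.7 was reached by 29 member pairs (5.17%) and by 1.14% of all pairs. None of the 561 pairs had a Benjamini-Hochberg adjusted permutation *P*-value below 0.05.

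The closest pair was *Oasl2*, of the oligoadenylate synthetase-like family, and *Gbp2*. They had r = 0.91 and Spearman's rho = 0.85 (permutation *P*-values 9.0e-05 and 0.00062, adjusted 0.0505 and 0.0696). Leaving out the 2 libraries farthest from the median gave r = 0.84, centring each group on its mean gave 0.92, and the 8 libraries with low choroid plexus reads gave 0.89. Both genes were at their highest in RH16, at 4.78 and 3.82 CPM. *Ifit1* and *Ifit3* had r = 0.86 and rho = 0.88 (adjusted permutation *P*-value of r 0.0609), with r = 0.79 without the 2 farthest libraries and 0.87 in the 8.

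A second pair joined membrane protein genes. *Bst2* and *Ifitm2* had r = 0.88 and rho = 0.88 (adjusted permutation *P*-value of r 0.0609), and r = 0.72 in the 8 libraries with low choroid plexus reads. *Bst2* and *Lgals3bp* had r = 0.82 and rho = 0.78 (adjusted permutation *P*-value of r 0.0820), which came to 0.69 without the 2 farthest libraries and to 0.52 in the 8. *Irf1* had a mean r with the other 33 members of −0.14.

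**Figure D5:**
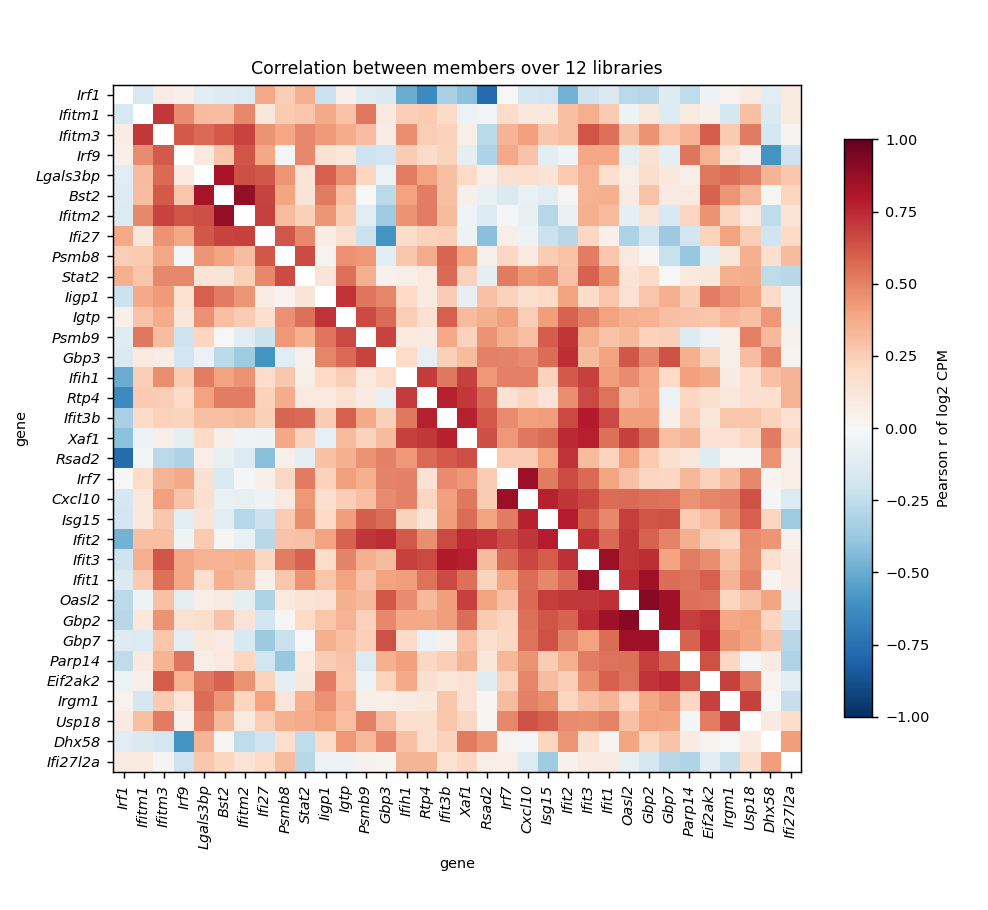
Pearson r between the members over the 12 libraries, with genes on both axes ordered so that correlated genes are neighbours, the diagonal left white, and colour from −1 (blue) to 1 (red). *Ifit1*, *Ifit3*, *Oasl2*, *Gbp2* and *Gbp7* form a dark red block, with *Ifit1* and *Ifit3* at 0.86 and *Gbp2* and *Gbp7* at 0.85, and *Irf1* is pale or blue against most members.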

How the data were processed

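Poly(A) RNA of 12 hippocampi was sequenced, 3 mice in each of 4 groups taken from the sample labels. Per the submitters' processing notes and the study's methods, the authors aligned reads to mm10 with STAR, and the deposited values are raw counts of uniquely mapped reads per gene for each library. The version and annotation are not given in the sources used here. The counts ignore strand: between 50.1% and 50.4% of strand-assigned reads fell on the first strand. Reads not assigned to a single gene (unmapped, multimapped, outside genes or ambiguous between overlapping genes) were 21.2% to 22.6% of each library, multimapped reads alone 3.07% to 3.55%, and they stayed out of library sizes and tests. A multimapped read is lost to every gene, which lowers near-identical copies such as *Ifit3* and *Ifit3b*. Of the members 15 are overlapped by another annotated gene (10 on the opposite strand, 6 on the same strand), and reads that fit both genes were not counted. Those on the same strand are *Irf9*, *Rtp4*, *Ifitm2*, *Gbp7*, *Igtp* and *Parp14*.

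Counts were tested with edgeR 4.0.16 (TMM normalization, quasi-likelihood F test, two-sided, Benjamini-Hochberg adjustment over the 22592 genes with more than 20 counts) in R 4.3.3. Each pair of groups was fitted on its own 6 libraries, the interaction and the 2 overall effects on all 12. The SE is the log2 fold change divided by the square root of F. CPM used TMM factors over 12 libraries and RPKM the GENCODE M21 exon lengths. DESeq2 1.42.0, limma 3.58.1 (voom), other filters, size factors and leaving out each library were alternatives. Correlations used 100000 permutations of log2 CPM over all 12 libraries without regard to group, so their *P*-values also take in differences between the groups. The scripts were tested on simulated data. *P*-values of the group comparisons rest on the spread between these mice.

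The members, pathway lists and marker lists were chosen with earlier results of these data known. Full statistics are given for members with an adjusted *P*-value under 0.05 or, per comparison, up to 8 with the smallest unadjusted *P* under 0.05, and for up to 3 genes per pathway list and comparison, not all of which are printed. *Igtp*, *Ifit1*, *Ifit3*, *Gbp2* and *Stat2* were added after their values were seen. A gene withheld from this text is not reported here.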

Additional observations from a re-analysis of the deposited data

How the results depend on the processing

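No paired analysis was possible because the groups share no animal number. Of 461 alternative values of single members 447 stayed on the same side of the threshold, 14 passed it and 0 changed direction. No member was called by limma-voom, with DESeq2 size factors in edgeR, with filterByExpr (33 members tested), with a term for low (RH8 and below) or high animal number or with all 12 libraries in one fit. Members called in KO-Nut3 against KO-Veh came to 1 with DESeq2, 1 with all genes of at least 1 count and 0 to 1 leaving out one library, *Lgals3bp* each time (adjusted *P*-values 0.00822, 0.000338 and, without RH8, 0.0327). In KO-Nut3 against WT-Veh the counts were again 1, 1 and 0 to 1, also *Lgals3bp* (0.0356, 0.0132 and 0.0447). Keeping all genes with at least 1 count gave 1 in KO-Veh against WT-Veh (*Irf9*, 0.0154), 2 in WT-Nut3 against WT-Veh (*Ifitm1*, 0.0451, and *Ifi27*, 0.0356), 1 in KO-Nut3 against WT-Nut3 (*Ifitm1*, 0.0479), 1 in the interaction (*Ifitm1*, 0.000955), 1 in all KO against all WT (*Irf9*, 0.0360) and 2 in all Nut3 against all Veh (*Ifi27*, 0.00427, and *Lgals3bp*, 0.00085). The cause was not tested. Leaving out one library, the median log2 fold change of the members ranged from 0.0033 to 0.53 in KO-Nut3 against KO-Veh, from −0.26 to 0.10 in KO-Veh against WT-Veh, from −0.07 to 0.09 in WT-Nut3 against WT-Veh, from 0.15 to 0.30 in KO-Nut3 against WT-Veh, from 0.09 to 0.25 in KO-Nut3 against WT-Nut3, from 0.059 to 0.51 in the interaction, from 0.04 to 0.15 in all KO against all WT and from −0.0091 to 0.21 in all Nut3 against all Veh. The extremes of 0.53, −0.26, 0.51, 0.04 and 0.21 were all without RH16, and the median turned direction in KO-Veh against WT-Veh, in WT-Nut3 against WT-Veh and, without RH10, in all Nut3 against all Veh. Over all genes, KO-Nut3 against KO-Veh gave 45 calls by edgeR, 245 by DESeq2, 19 by limma-voom, 544 with all genes of at least 1 count, 20 with the animal-number term, 0 with all 12 libraries in one fit and 266 without RH8. Depth limits the members under 1 CPM, such as *Cxcl10*.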
